A study of Homo sapiens with 50 samples.

Results

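Carbonic anhydrases interconvert carbon dioxide and water with bicarbonate and a proton, and 8 of their genes were followed in H1 cells, an established wild-type human embryonic stem cell line, during differentiation toward heart muscle under acid or base. The 8 genes are CA4, CA9, CA12 and CA14, whose enzymes sit on the cell surface, CA2, CA3 and CA13, whose enzymes are cytosolic, and CA11, a related protein without enzyme activity. They were taken by gene symbol from the deposited tables, where each symbol stood on 1 row, and they are 8 of the 57905 genes listed. All 50 libraries came from wild-type H1 cells labelled as cardiac differentiation, 2 libraries to each of 25 groups. On each of days 3, 5, 7 and 11 the groups were cultures with HCl, an acid, with NaHCO3, a base, with IWP2, a compound that blocks secretion of WNT proteins, with IWP2 and NaHCO3, with IWP2, NaHCO3 and 2-DG, a glucose analogue that inhibits glycolysis, and a differentiation control. Undifferentiated cells of day 0 formed the remaining group. The labels give no dose, no time of addition and no pH of the medium, and all libraries come from 1 cell line. They also do not say that the 2 libraries of a group came from separate cultures, so that p-values measure only the spread between these libraries, which may be technical.

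Cytosolic carbonic anhydrases buffer the cell interior and feed bicarbonate and protons to membrane carriers. The surface enzymes do the same on the outer face of the membrane, where they help cells to shed carbon dioxide, protons and lactate. In heart muscle of mice and rats, CA4, CA9 and CA14 have been found at the membranes of the muscle cell. NaHCO3 supplies bicarbonate, the product of these enzymes, and HCl supplies protons, so both additions bear on the reaction itself as well as on pH. CA9 is the textbook target of hypoxia-inducible factor, a transcription factor that binds sites with the core ACGTG or GCGTG.

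The 250 bases before the RefSeq start of 3 surface enzyme genes are shown, 5′ to 3′ along the gene's strand, because the CA9 stretch is the one known for that core and because CA12 and CA14 moved in opposite directions in the acid cultures. They come from RefSeq on build GRCh38.p14, where the stretches lie at chr9:35673678-35673927 on the plus strand for CA9, chr15:63381847-63382096 on the minus strand for CA12 and chr1:150257524-150257773 on the plus strand for CA14. Capitals mark a match to ACGTG or GCGTG on either strand.

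CA9: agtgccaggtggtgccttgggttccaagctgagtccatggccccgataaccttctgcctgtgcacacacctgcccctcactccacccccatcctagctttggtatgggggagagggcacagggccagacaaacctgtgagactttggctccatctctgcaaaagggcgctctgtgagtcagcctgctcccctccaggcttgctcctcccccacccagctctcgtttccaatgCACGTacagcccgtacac
CA12: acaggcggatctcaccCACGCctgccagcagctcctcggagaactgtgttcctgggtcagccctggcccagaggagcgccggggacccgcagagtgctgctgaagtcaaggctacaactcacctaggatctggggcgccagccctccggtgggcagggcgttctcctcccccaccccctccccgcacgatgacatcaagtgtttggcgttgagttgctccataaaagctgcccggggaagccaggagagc
CA14: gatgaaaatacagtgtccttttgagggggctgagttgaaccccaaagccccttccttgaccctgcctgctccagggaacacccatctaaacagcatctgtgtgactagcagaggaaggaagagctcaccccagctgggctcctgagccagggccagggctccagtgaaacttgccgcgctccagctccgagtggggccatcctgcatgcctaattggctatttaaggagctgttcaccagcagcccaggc

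The CA9 stretch held 1 ACGTG, read on the opposite strand, which begins 18 bases before the start. The CA12 stretch held 1 GCGTG, also on the opposite strand, and the CA14 stretch held neither. Of 35116 RefSeq windows of the same length, 18.5% held ACGTG and 32.2% held GCGTG on either strand. A match this short describes the sequence and shows no bound factor.

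Expression was measured by RNA sequencing, as read counts per gene and as FPKM, which is scaled to exon length and library size. Libraries held 14794134 to 22796553 counts in the table of days 3 and 5 and 14090004 to 20445875 counts in the table of days 7, 11 and 0. The 2 libraries with 2-DG of day 3 lay farther apart than those of any other group. Fold changes are log2 values from edgeR's quasi-likelihood test on the counts, given with their standard error (SE), and p-values are adjusted by Benjamini-Hochberg over all genes of a table. A gene is called changed where the adjusted p is under 0.05 and the log2 change is at least 1 in size. Of the members, 7 were tested on days 7 and 11 and 6 on days 3 and 5, after genes under 1 FPKM in all but 1 library were left out. CA9 failed that filter in both tables and CA13 in the table of days 3 and 5. Tests stay within a table, and levels set across the tables are FPKM values without a test.

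The labelled differentiation was checked on 12 heart muscle markers, of which 11 reached 1 FPKM in the control of day 11 and 1 did in undifferentiated cells. The summed FPKM of these markers on day 11 was 7345 and 7348 with HCl, 135 and 139 with NaHCO3, 4661 and 4778 with IWP2, 482 and 502 with IWP2 and NaHCO3, 8111 and 7342 with 2-DG added to both, and 732 and 1003 in the control. The libraries are bulk RNA, in which fewer cells of a type and less RNA per cell cannot be told apart.

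Across the 20 comparisons between treatments, CA4 and CA12 had the largest changes. Their called changes were all lower with HCl, with IWP2 and with 2-DG, and all higher where NaHCO3 was added to IWP2. HCl gave 16 calls in 26 tests of members (4 higher, 12 lower, median log2 change -1.02), where 16.5% of all tests of all genes were called. On days 3, 5, 7 and 11 the HCl counts were 4 of 6, 3 of 6, 4 of 7 and 5 of 7 members tested, beside 10.6%, 20%, 14.3% and 21.1% of all genes. NaHCO3 gave 9 calls in 26 tests (5 higher, 4 lower, median -0.10), against 9.53% of all tests. By day these were 3 of 6, 1 of 6, 3 of 7 and 2 of 7, beside 4.08%, 6.39%, 10.2% and 16.9% of all genes.

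The other 3 contrasts went 1 way each. IWP2 against the control gave 9 calls in 26 tests, all lower (median -0.90), where 9.88% of all tests were called in either direction and 5.57% were called lower. By day the IWP2 counts were 1 of 6, 1 of 6, 4 of 7 and 3 of 7, beside 0.613%, 6.77%, 16.4% and 14.9% of all genes. NaHCO3 added to IWP2 gave 12 calls, all higher (median 1.05), where 11.3% of all tests were called and 6.04% were called higher. By day they were 2 of 6, 1 of 6, 4 of 7 and 5 of 7, beside 3.19%, 5.81%, 16.7% and 18.5% of all genes. The addition of 2-DG to IWP2 and NaHCO3 gave 9 calls, all lower (median -0.65), where 14.5% of all tests were called and 8.2% were called lower. By day they were 0 of 6, 2 of 6, 3 of 7 and 4 of 7, beside 3.59%, 16.5%, 16.3% and 21.1% of all genes. On day 3 edgeR's test gave 3 of the 6 members an unadjusted p under 0.05, and DESeq2 and limma also called 0.

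These counts describe the members and support nothing about the family. CA3, CA4, CA12 and CA13 were under 1 FPKM in some groups and passed the filter through others, so some difference was bound to appear. The IWP2 comparison, the NaHCO3 addition and the 2-DG addition also share libraries, since the IWP2 group stands in the first as the treated and in the second as the untreated group.

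**Figure D1:**
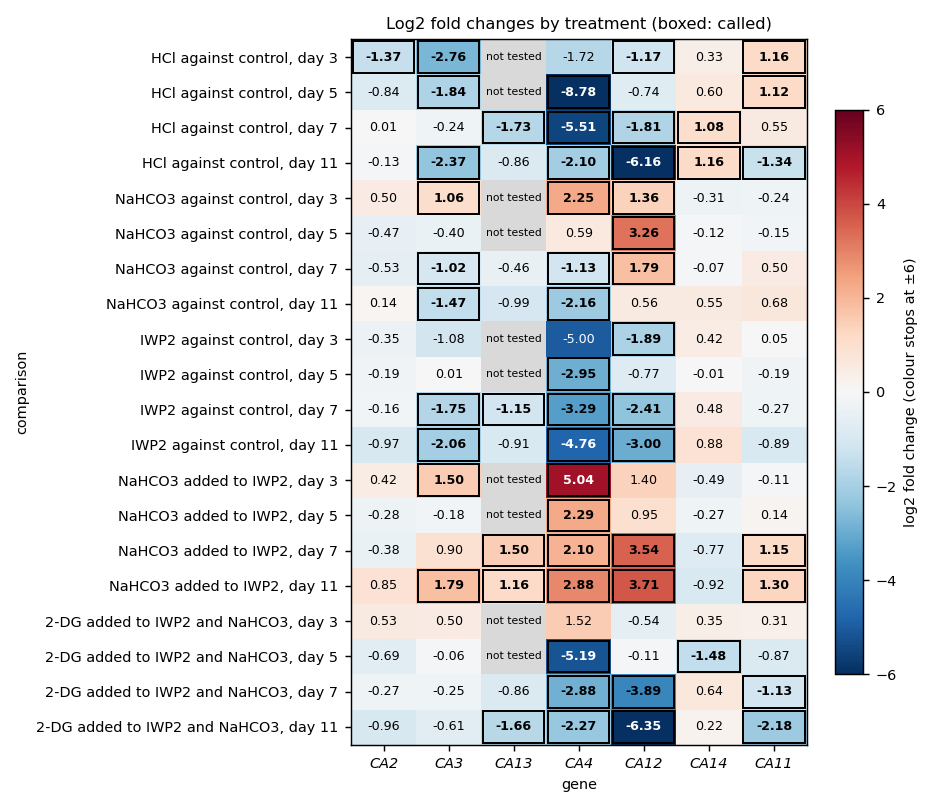
Log2 fold changes of the 7 tested genes in the 20 comparisons between treatments, with the colour scale stopping at 6 in either direction and a box around each called change. CA4 and CA12 hold the deepest colours, lower with HCl, IWP2 and 2-DG and higher where NaHCO3 was added to IWP2; fitted values of CA4 on days 3 and 5 with HCl, and on day 3 with IWP2, rest on 0 to 2 counts and are no bound.

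CA4 encodes an enzyme anchored to the outer cell surface by a lipid, known from capillary endothelium, kidney and lung (ENSG00000167434, plus strand of chromosome 17, 58227297 to 58248260 on GRCh37, the build of the files). In the control CA4 rose early, between days 3 and 5, and was lower again on day 11. Undifferentiated cells had 0.98 and 1.07 FPKM of CA4, and control cultures had 0.11 and 0.08 FPKM on day 3, 6.16 and 7.58 FPKM on day 5, 10.45 and 9.62 FPKM on day 7 and 3.92 and 4.14 FPKM on day 11. Day 5 was above day 3 by a log2 change of 6.19 (SE 0.37, adjusted p = 1.48e-10). Day 11 was below day 7 by a log2 change of -1.25 (SE 0.19, adjusted p = 2.43e-06).

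The acid cultures had almost no CA4 on day 5. On day 5 CA4 had 0.03 and 0 FPKM with HCl, against 6.16 and 7.58 FPKM in the control. The counts behind these values were 1 in both HCl libraries together and 618 in the control, a 555-fold lower share of the library's counts with a 95% interval of 99.2 to 21950, which covers counting error only. On day 7 the acid cultures had 0.19 and 0.23 FPKM, against 10.45 and 9.62 FPKM in the control, a log2 change of -5.51 (SE 0.29, adjusted p = 2.52e-16). The gap was smaller on day 11, with 0.6 and 1.17 FPKM with HCl and 3.92 and 4.14 FPKM in the control (-2.10, SE 0.24, adjusted p = 8.99e-09). The HCl effect of day 11 exceeded that of day 7 by 3.41 (SE 0.43, adjusted p = 1.27e-07).

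CA4 was also lower with IWP2, and part of the difference was gone where NaHCO3 was added. On day 5 CA4 had 0.63 and 1.14 FPKM with IWP2, against 6.16 and 7.58 FPKM in the control (-2.95, SE 0.27, adjusted p = 2.48e-07). On day 7 it had 0.96 and 0.95 FPKM with IWP2, against 10.45 and 9.62 FPKM in the control (-3.29, SE 0.23, adjusted p = 1.24e-13). On day 11 it had 0.05 and 0.23 FPKM with IWP2, against 3.92 and 4.14 FPKM in the control (-4.76, SE 0.34, adjusted p = 6.10e-13). That day 11 change was -4.06 without the first IWP2 library and -6.29 without the second. The libraries of the IWP2 and control groups did not overlap on any of these days.

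With NaHCO3 added to IWP2, CA4 stood at 4.49 and 4.33 FPKM on day 5, against 0.63 and 1.14 FPKM with IWP2 alone (2.29, SE 0.27, adjusted p = 7.39e-06). On day 7 it stood at 3.97 and 4.58 FPKM, against 0.96 and 0.95 FPKM with IWP2 alone (2.099, SE 0.24, adjusted p = 7.68e-09). On day 11 it stood at 1.19 and 0.84 FPKM, against 0.05 and 0.23 FPKM with IWP2 alone (2.88, SE 0.42, adjusted p = 8.26e-07). The day 11 value was 2.17 without the first IWP2 library and 4.39 without the second. On day 3 CA4 was listed at 0 in both IWP2 libraries, and 7 counts after NaHCO3 make it at least 1.29-fold higher, taking 3 counts per library as the floor. The call on day 3 was lost when any of the 4 libraries was left out (adjusted p = 0.0661 to 0.263).

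Adding 2-DG took CA4 back down. It had 0.12 and 0.08 FPKM with 2-DG on day 5, against 4.49 and 4.33 FPKM with IWP2 and NaHCO3 alone, 36.5-fold lower (-5.19, SE 0.38, adjusted p = 3.55e-09). On day 7 it had 0.44 and 0.65 FPKM with 2-DG, against 3.97 and 4.58 FPKM without (-2.88, SE 0.26, adjusted p = 8.48e-11). On day 11 it had 0.16 and 0.26 FPKM with 2-DG, against 1.19 and 0.84 FPKM without (-2.27, SE 0.40, adjusted p = 1.42e-05). The libraries of the groups did not overlap on any of the 3 days.

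NaHCO3 on its own raised CA4 early and lowered it late. On day 3 CA4 had 0.46 and 0.42 FPKM with NaHCO3, against 0.11 and 0.08 FPKM in the control (2.25, SE 0.50, adjusted p = 0.00556), a call that was lost without the second control library (2.06, adjusted p = 0.0522). On day 5 the values were 9.76 and 10.39 FPKM with NaHCO3 and 6.16 and 7.58 FPKM in the control, and the change of 0.59 was not called. On day 7 CA4 fell to 4.28 and 4.1 FPKM with NaHCO3, against 10.45 and 9.62 FPKM in the control (-1.13, SE 0.19, adjusted p = 9.60e-06). On day 11 it fell to 0.9 and 0.66 FPKM with NaHCO3, against 3.92 and 4.14 FPKM in the control (-2.16, SE 0.25, adjusted p = 9.88e-09). The change of the NaHCO3 effect between days was not tested.

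Liver and foregut genes moved across the groups beside CA4 on days 5 and 7. On day 5 the summed FPKM of 14 liver and foregut markers was 21.2 and 19.4 with HCl, 414 and 444 with NaHCO3, 56.5 and 53.6 with IWP2, 302 and 299 with IWP2 and NaHCO3, 43.0 and 33.3 with 2-DG added to both, and 337 and 393 in the control. Markers at 1 FPKM or more numbered 5 of 14 with HCl, 11 with NaHCO3, 9 with IWP2, 12 with IWP2 and NaHCO3, 6 with 2-DG and 10 in the control, and SERPINA1 was at 0 with HCl. On day 7 the sum was 52.0 and 64.7 with HCl, 1150 and 1400 with NaHCO3, 173 and 444 with IWP2, 1507 and 1558 with IWP2 and NaHCO3, 147 and 115 with 2-DG, and 1700 and 1730 in the control. The group means of the sum and of CA4 had the same order on day 7. On day 11 they did not. The sum was then 5361 and 4283 with NaHCO3, 260 and 425 with HCl, and 5259 and 6210 in the control. CA4 on day 11 had 0.9 and 0.66 FPKM with NaHCO3, 0.6 and 1.17 FPKM with HCl, and 3.92 and 4.14 FPKM in the control. The part of these markers in the CA4 result was not tested. Other marker lists, among them that of endothelial markers, are not given here beside CA4.

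**Figure D2:**
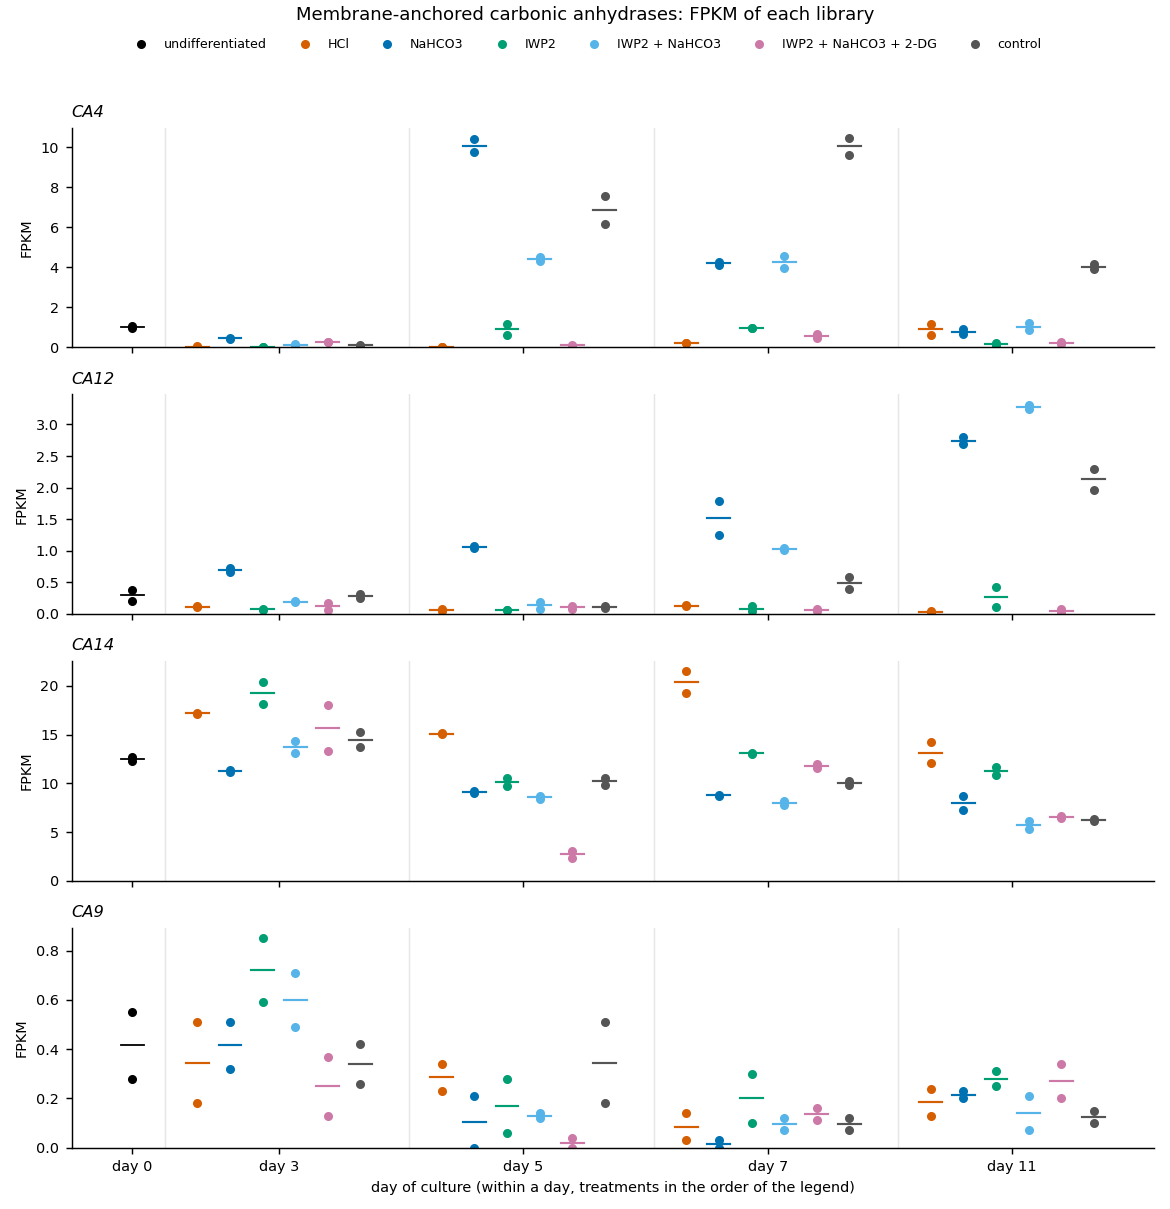
FPKM of CA4, CA12, CA14 and CA9 in each library by day, with points for the 2 libraries of a group and a bar at their mean. CA4 is highest in NaHCO3 cultures of day 5 (9.76 and 10.39) and control cultures of day 7 (10.45 and 9.62), CA12 on day 11 in the 3 groups with NaHCO3 or control medium and no 2-DG, and CA9 stays under 1 FPKM in every library.

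CA12 encodes a transmembrane enzyme of epithelia with its active site outside the cell (ENSG00000074410, minus strand of chromosome 15, 63613577 to 63674360). It was a late gene in the control, which had 0.31 and 0.25 FPKM on day 3, 0.12 and 0.1 FPKM on day 5, 0.58 and 0.39 FPKM on day 7 and 2.3 and 1.97 FPKM on day 11. Undifferentiated cells had 0.38 and 0.21 FPKM. The control of day 11 was above undifferentiated cells by a log2 change of 2.75 (SE 0.35, adjusted p = 6.66e-07) and above the control of day 7 by 2.22 (SE 0.32, adjusted p = 1.33e-05).

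On day 11 the CA12 groups fell into high and low. HCl cultures had 0.02 and 0.04 FPKM of CA12, IWP2 cultures 0.42 and 0.11 FPKM and 2-DG cultures 0.01 and 0.08 FPKM. NaHCO3 cultures had 2.8 and 2.69 FPKM, cultures with IWP2 and NaHCO3 had 3.25 and 3.31 FPKM, and the control had 2.3 and 1.97 FPKM. No library of the low groups reached any library of the high groups.

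The day 11 changes of CA12 were among its largest, with 7 counts in both HCl libraries together and 9 in both 2-DG libraries. HCl cultures were 71.4-fold below the control (-6.16, SE 0.53, adjusted p = 6.07e-09), or -6.95 on the log2 scale without the second HCl library. IWP2 cultures were 7.99-fold below the control (-3.00, SE 0.36, adjusted p = 7.60e-07), with -4.26 without the first IWP2 library and -2.35 without the second. The size of that IWP2 change thus rests on which of its 2 libraries is read.

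NaHCO3 added to IWP2 put CA12 13.1-fold above IWP2 alone on day 11 (3.71, SE 0.34, adjusted p = 2.02e-08), with 4.97 and 3.04 when the first or the second IWP2 library was left out. The further addition of 2-DG put it 81.6-fold below the cultures with IWP2 and NaHCO3 (-6.35, SE 0.49, adjusted p = 1.00e-09), with -5.39 and -8.51 when the first or the second 2-DG library was left out. NaHCO3 alone against the control gave a change of 0.56, which was not called.

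Day 7 had the same high and low groups at lower levels of CA12. On day 7 NaHCO3 cultures had 1.79 and 1.25 FPKM, against 0.58 and 0.39 FPKM in the control (1.79, SE 0.32, adjusted p = 1.82e-04). Cultures with IWP2 and NaHCO3 had 1.01 and 1.04 FPKM, against 0.05 and 0.12 FPKM with IWP2 alone (3.54, SE 0.47, adjusted p = 3.18e-06; 4.43 without the second IWP2 library). Cultures with 2-DG had 0.08 and 0.05 FPKM, against 1.01 and 1.04 FPKM without it (-3.89, SE 0.50, adjusted p = 1.83e-06). All of these pairs of groups were apart in every library.

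IWP2 alone was also below the control on day 7, at 0.05 and 0.12 FPKM of CA12 against 0.58 and 0.39 FPKM (-2.41, SE 0.53, adjusted p = 8.70e-04; -3.31 without the second IWP2 library). HCl cultures of day 7 had 0.14 and 0.12 FPKM, against 0.58 and 0.39 FPKM in the control (-1.81, SE 0.48, adjusted p = 0.00425). On day 5 NaHCO3 cultures already had 1.05 and 1.07 FPKM of CA12, against 0.12 and 0.1 FPKM in the control, 9.59-fold higher (3.26, SE 0.37, adjusted p = 2.34e-06). The highest CA12 value of day 5 outside these NaHCO3 cultures was 0.19 FPKM.

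The day 3 calls of CA12 rest on few counts. With HCl CA12 had 0.11 and 0.12 FPKM, against 0.31 and 0.25 FPKM in the control (-1.17, SE 0.40, adjusted p = 0.0330), and the call was lost without any 1 of the 4 libraries (adjusted p = 0.0553 to 0.177). With IWP2 it had 0.07 and 0.08 FPKM, against 0.31 and 0.25 FPKM in the control (-1.89, SE 0.43, adjusted p = 0.0326), and that call was also lost without any 1 library (adjusted p = 0.084 to 0.31). Day 3 therefore gives no firm CA12 value for acid or for IWP2. With NaHCO3 it had 0.72 and 0.67 FPKM, against 0.31 and 0.25 FPKM in the control (1.36, SE 0.33, adjusted p = 0.00949). The NaHCO3 call was lost without the first control library (1.52, adjusted p = 0.0503), the second (1.24, adjusted p = 0.0957) or the first NaHCO3 library (1.33, adjusted p = 0.0613).

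Fibroblast and matrix genes had the same high and low groups as CA12 on day 11. The summed FPKM of 8 fibroblast and matrix markers was 371 and 384 with HCl, 6849 and 7045 with NaHCO3, 746 and 681 with IWP2, 3677 and 3750 with IWP2 and NaHCO3, 370 and 485 with 2-DG added to both, and 3254 and 3238 in the control. All 8 markers were at 1 FPKM or more in every group of day 11 and none was at 0. The liver and foregut sum on that day was 260 and 425 with HCl, 5361 and 4283 with NaHCO3, 195 and 177 with IWP2, 5197 and 4836 with IWP2 and NaHCO3, 187 and 198 with 2-DG, and 5259 and 6210 in the control. Their part in the CA12 result was not tested. Other marker lists, among them that of epithelial markers, are not given here beside CA12.

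CA14 encodes another transmembrane enzyme, known from heart, kidney, brain and liver in mice (ENSG00000118298, plus strand of chromosome 1, 150229554 to 150237478). It was present in every library, at 2.36 to 21.57 FPKM with a median of 11.0 FPKM, and varied less than CA4 and CA12. Undifferentiated cells had 12.34 and 12.69 FPKM, and the control had 15.27 and 13.69 FPKM on day 3, 10.58 and 9.81 FPKM on day 5, 10.28 and 9.8 FPKM on day 7 and 6.17 and 6.35 FPKM on day 11. The control of day 11 was below undifferentiated cells by a log2 change of -1.10 (SE 0.10, adjusted p = 8.97e-12).

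CA14 was the surface enzyme gene that rose with acid. On day 7 HCl cultures had 21.57 and 19.25 FPKM, against 10.28 and 9.8 FPKM in the control, 2.11-fold higher (1.08, SE 0.09, adjusted p = 1.77e-11). On day 11 they had 14.22 and 12.06 FPKM, against 6.17 and 6.35 FPKM in the control, 2.23-fold higher (1.16, SE 0.10, adjusted p = 7.52e-12). The day 7 change came to 0.98, under the fold threshold, without the first HCl library. On days 3 and 5 the changes of 0.33 and 0.60 were not called.

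The addition of 2-DG lowered CA14 on day 5, at 3.06 and 2.36 FPKM with 2-DG against 8.69 and 8.42 FPKM with IWP2 and NaHCO3 (-1.48, SE 0.16, adjusted p = 3.67e-07). On day 3 the same groups had 18.07 and 13.35 FPKM with 2-DG and 13.07 and 14.39 FPKM without, and overlapped. Later days had no call for 2-DG, with changes of 0.64 on day 7 and 0.22 on day 11. NaHCO3 added to IWP2 left CA14 under the fold threshold on every day, and on day 11 the values were 5.29 and 6.11 FPKM with NaHCO3 and 10.9 and 11.72 FPKM with IWP2 alone (-0.92, SE 0.10, adjusted p = 1.70e-09). IWP2 against the control was not called on any day for CA14, and neither was NaHCO3 against the control. Still, on day 11 CA14 had 10.9 and 11.72 FPKM with IWP2, against 6.17 and 6.35 FPKM in the control, without overlap. On day 5 the IWP2 and control libraries overlapped for CA14.

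The heart muscle sum on day 11 was high in 3 groups, 2 of which, HCl and IWP2, also had the highest CA14 of that day. The 2-DG cultures, with a heart muscle sum of 8111 and 7342 FPKM, had 6.44 and 6.6 FPKM of CA14, against 6.17 and 6.35 FPKM in the control. At 1 FPKM or more were 11 of 12 heart markers with HCl, 11 with IWP2, 12 with 2-DG and 11 in the control. None of the 12 was at 0 in any group of day 11. Their part in the CA14 result was not tested.

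CA9, the hypoxia-inducible transmembrane enzyme whose promoter stretch is shown above, was barely expressed (ENSG00000107159, plus strand of chromosome 9, 35673853 to 35681156). It ranged over 0 to 0.85 FPKM in the 50 libraries with a median of 0.2 FPKM. The highest group mean was that of IWP2 on day 3, with 0.85 and 0.59 FPKM, and all 24 pairs of groups next to each other in level overlapped in their libraries. CA9 overlaps ARHGEF39, which stood at 0.29 to 6.83 FPKM, and without knowledge of strand the reads of the pair cannot be told apart. Without the filter on low genes CA9 was called in 5 of 34 comparisons, the lowest adjusted p being 0.00928 in edgeR's quasi-likelihood test. None of the 5 compared treatments. CA9 was lower on day 5 than on day 3 with IWP2, with IWP2 and NaHCO3, and with 2-DG (1 count against 15). It was higher on day 11 than on day 7 with NaHCO3 (13 counts against 1), and lower in the control of day 7 than in undifferentiated cells. The share of all genes called without the filter is not given.

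Other hypoxia-inducible genes changed on day 3 while CA9 stayed low. Of 24 such genes tested, 10 rose and 1, LOX, fell with NaHCO3 against the control on day 3, where 4.08% of all genes were called, with a median log2 change of 0.86 where all genes had a median of 0. The glucose transporter gene SLC2A1 had 57.7 and 55.08 FPKM with NaHCO3, against 16.03 and 15.05 FPKM in the control (1.91, SE 0.11, adjusted p = 1.39e-09). The lactate dehydrogenase gene LDHA had 188.64 and 212.31 FPKM with NaHCO3, against 52.41 and 58.3 FPKM in the control (1.91, SE 0.12, adjusted p = 5.25e-09). On the same day CA9 had 0.32 and 0.51 FPKM with NaHCO3 and 0.42 and 0.26 FPKM in the control, and these libraries overlapped.

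With NaHCO3 added to IWP2 on day 3, 8 of the 24 rose and 1 fell, beside 3.19% of all genes called, and with 2-DG added on day 3, 1 rose (STC2) and 5 fell, beside 3.59%. The 5 were PDK1, HK2, LOX, SLC2A1 and PFKFB4. HCl on day 3 gave 4 higher and 1 lower, beside 10.6% of all genes, and IWP2 on day 3 gave none higher and 1 lower, beside 0.613%. The list covers glycolytic genes that respond to much besides oxygen.

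CA2 encodes the fast cytosolic enzyme of red cells, kidney and bone (ENSG00000104267, plus strand of chromosome 8, 86376081 to 86393722). It had the highest peak level of the 8 genes, 58.3 FPKM, and was an early gene in every culture but the acid one. On day 3 HCl cultures had 14.68 and 13.16 FPKM of CA2, NaHCO3 cultures 48.7 and 55.34 FPKM, IWP2 cultures 30.6 and 28.64 FPKM, cultures with IWP2 and NaHCO3 40.16 and 39.13 FPKM, 2-DG cultures 58.3 and 44.8 FPKM and the control 39.57 and 36.73 FPKM. HCl cultures stood 2.59-fold below the control, outside the range of all others (-1.37, SE 0.16, adjusted p = 1.86e-06).

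No other treatment comparison of CA2 was called on any day. Uncalled groups could still lie apart, as on day 11 with 3.67 and 3.88 FPKM with IWP2, against 7.44 and 7.6 FPKM in the control. In the control CA2 stood at 39.57 and 36.73 FPKM on day 3, 23.02 and 25.93 FPKM on day 5, 23.13 and 20.73 FPKM on day 7 and 7.44 and 7.6 FPKM on day 11, with 5.24 and 5.6 FPKM in undifferentiated cells. The control of day 7 was above undifferentiated cells by a log2 change of 1.85 (SE 0.12, adjusted p = 1.44e-14). Between days 11 and 7 CA2 fell in 5 of 6 cultures, by 1.05 to 2.28 on the log2 scale, and NaHCO3 cultures had -0.81, which was not called.

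The day 11 fall of CA2 was deepest with IWP2, at 3.67 and 3.88 FPKM on day 11 against 18.52 and 18.17 FPKM on day 7 (-2.28, SE 0.13, adjusted p = 1.85e-14). With IWP2 and NaHCO3 it was -1.05 (SE 0.12), which came to -0.97 without the second library of day 11. Between days 5 and 3 CA2 fell with NaHCO3 (-1.56), with IWP2 and NaHCO3 (-1.14) and with 2-DG (-2.36), each with an adjusted p of 6.97e-06 or less. Red cell markers were low, with at most 3 of 12 at 1 FPKM or more in any group, and on day 3 they were lowest with HCl, as CA2 was. The summed FPKM of 12 erythroid and blood markers on day 3 was 1.23 and 1.74 with HCl, 7.65 and 6.49 with NaHCO3, 11.1 and 11.9 with IWP2, 15.0 and 14.7 with IWP2 and NaHCO3, 17.6 and 9.09 with 2-DG added to both, and 7.46 and 6.36 in the control. At 1 FPKM or more on day 3 were 0 of 12 with HCl and 2 of 12 in each other group, and the globin gene HBG1 was at 0 in all of them. Their part in the CA2 result was not tested.

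**Figure D3:**
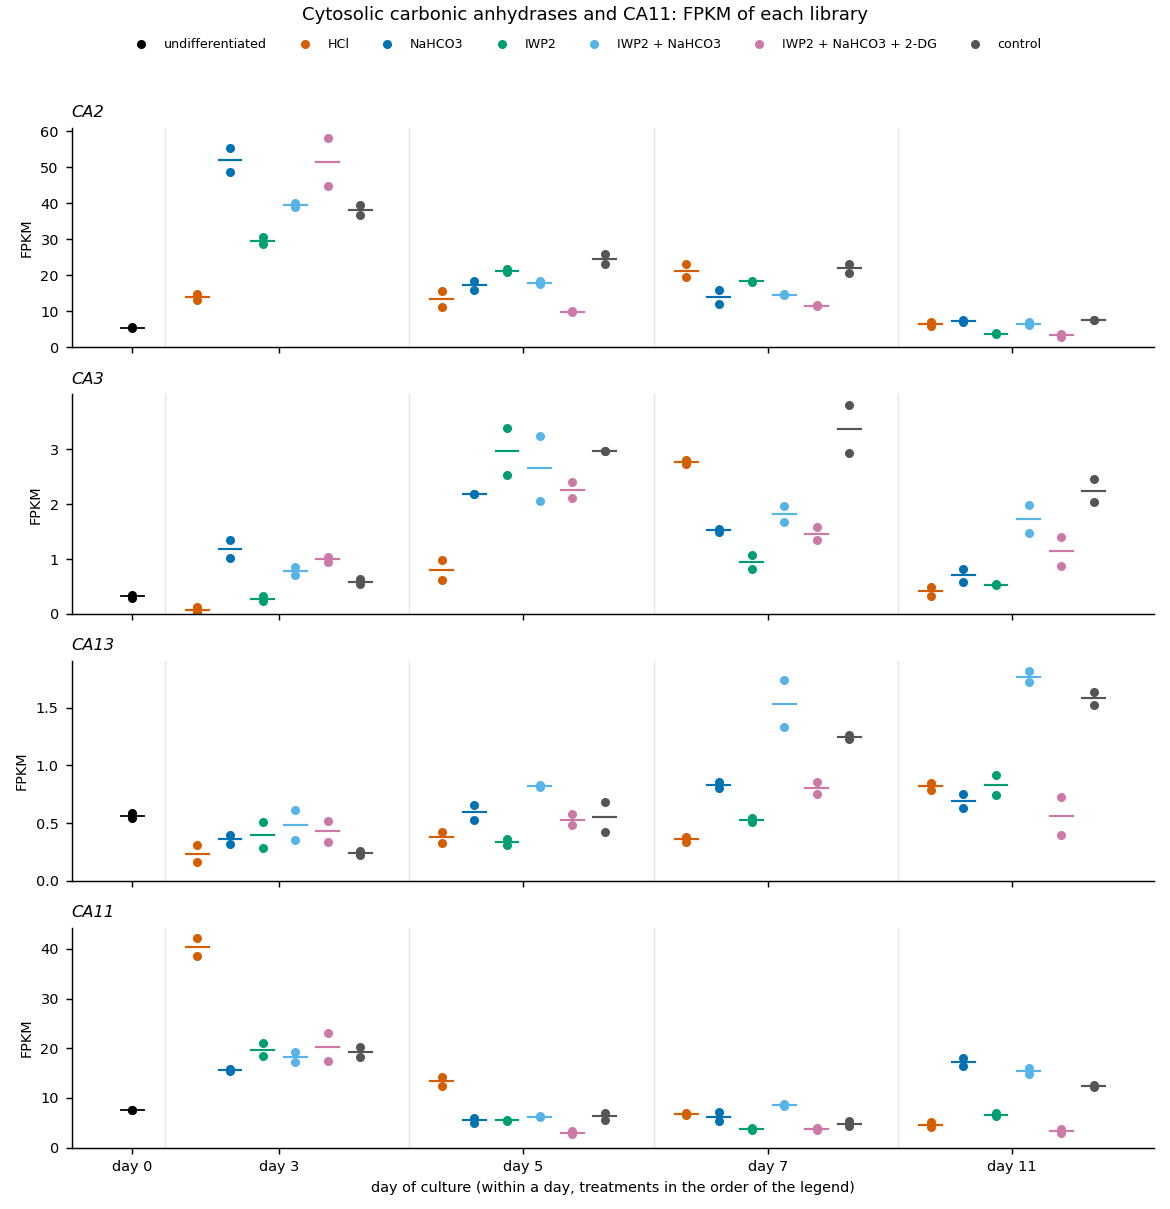
FPKM of CA2, CA3, CA13 and CA11 in each library by day, with points for the 2 libraries of a group and a bar at their mean. The highest group means of CA2 and CA11 stand on day 3, where HCl cultures hold the lowest CA2 (14.68 and 13.16) and the highest CA11 (38.63 and 42.24). Within HCl cultures CA2 is highest on day 7, and within NaHCO3 cultures CA11 is highest on day 11.

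CA3 encodes the slow cytosolic enzyme abundant in skeletal muscle and fat (ENSG00000164879, plus strand of chromosome 8, 86285665 to 86361269). It was low throughout, at 0.03 to 3.81 FPKM with a median of 1.34 FPKM. It overlaps RP11-317J10.2 on the other strand, which stood at 0.3 to 2.72 FPKM, and since the use of strand in counting is not given in the sources used here, reads of the 2 genes cannot be told apart. The control had 0.55 and 0.63 FPKM on day 3, 2.96 and 2.97 FPKM on day 5, 2.93 and 3.81 FPKM on day 7 and 2.04 and 2.45 FPKM on day 11, with 0.35 and 0.3 FPKM in undifferentiated cells. The control of day 7 was 9.20-fold above undifferentiated cells (3.20, SE 0.29, adjusted p = 2.31e-11), and that of day 11 was 6.38-fold above them (2.67, SE 0.30, adjusted p = 2.65e-09).

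CA3 was lower with acid on 3 of the 4 days. On day 3 HCl cultures had 0.13 and 0.03 FPKM, against 0.55 and 0.63 FPKM in the control (-2.76, SE 0.53, adjusted p = 4.63e-04), with -4.27 and -2.04 without the first or the second HCl library. On day 5 they had 0.61 and 0.99 FPKM, against 2.96 and 2.97 FPKM in the control (-1.84, SE 0.29, adjusted p = 3.52e-05). Both early days thus put the acid cultures below the control in every library. On day 7 they had 2.81 and 2.73 FPKM, against 2.93 and 3.81 FPKM in the control, a change of -0.24 that was not called. On day 11 they had 0.49 and 0.33 FPKM, against 2.04 and 2.45 FPKM in the control (-2.37, SE 0.29, adjusted p = 2.61e-08).

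The acid effect on CA3 differed between days 7 and 11. The HCl effect of day 11 minus that of day 7 was -2.13 (SE 0.36, adjusted p = 1.48e-05). Between days 11 and 7 the fall of CA3 was called in HCl cultures (-2.66, SE 0.28, adjusted p = 1.56e-09), and the changes of the other cultures, -0.97 to 0.05, were not called.

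IWP2 lowered CA3 late, to 0.82 and 1.07 FPKM on day 7, against 2.93 and 3.81 FPKM in the control (-1.75, SE 0.24, adjusted p = 2.52e-07). On day 11 IWP2 cultures had 0.54 and 0.52 FPKM, against 2.04 and 2.45 FPKM in the control (-2.06, SE 0.28, adjusted p = 2.27e-07). NaHCO3 alone lowered it too, to 0.59 and 0.82 FPKM on day 11, against 2.04 and 2.45 FPKM in the control (-1.47, SE 0.26, adjusted p = 1.74e-05). Yet NaHCO3 added to IWP2 raised it on day 11, to 1.99 and 1.47 FPKM against 0.54 and 0.52 FPKM with IWP2 alone (1.79, SE 0.28, adjusted p = 3.17e-06).

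Other CA3 calls were less stable. NaHCO3 against the control was called on day 3 (1.06, adjusted p = 0.0357) and NaHCO3 added to IWP2 was called on day 3 (1.502, adjusted p = 0.0239), and both calls were lost without any 1 of their 4 libraries. NaHCO3 against the control was called on day 7 (-1.02, adjusted p = 3.45e-04), and came to -0.84 without the second control library and -0.98 without the second NaHCO3 library. No 2-DG comparison of CA3 was called. The summed FPKM of 7 skeletal muscle markers on day 5 was 234 and 233 with HCl and 238 and 234 with 2-DG added, against 1.86 and 2.08 in the control. On day 11 it was 99.9 and 95.9 with HCl, 129 and 140 with IWP2 and 314 and 274 with 2-DG added, against 12.6 and 16.1 in the control. With HCl the sum was nearly all ACTA1 on day 5 (231.9 and 229.94 FPKM) and CKM on day 11 (95.67 and 91.54 FPKM), an actin and a creatine kinase that heart muscle also expresses. At most 2 of the 7 reached 1 FPKM in any group, and MYOD1 was at 0 in each group of days 5, 7 and 11. Their part in the CA3 result was not tested.

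CA13 encodes a cytosolic enzyme of several tissues (ENSG00000185015, plus strand of chromosome 8, 86132816 to 86196302). It ranged over 0.16 to 1.82 FPKM with a median of 0.585 FPKM, and was tested on days 7, 11 and 0. It overlaps RP11-219B4.5 and RP11-219B4.6, which reached 0.33 and 0.54 FPKM at most. The highest group means stood on day 11, with 1.72 and 1.82 FPKM with IWP2 and NaHCO3 and 1.52 and 1.64 FPKM in the control. Undifferentiated cells had 0.59 and 0.54 FPKM, and the control of day 11 was above them by a log2 change of 1.37 (SE 0.21, adjusted p = 6.09e-07).

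The called treatment changes of CA13 had the signs of CA12 in the same comparisons. On day 7 HCl cultures had 0.38 and 0.34 FPKM, against 1.26 and 1.23 FPKM in the control (-1.73, SE 0.22, adjusted p = 1.40e-07). IWP2 cultures had 0.51 and 0.54 FPKM, against the same control (-1.15, SE 0.21, adjusted p = 3.72e-05). With NaHCO3 added to IWP2 the values were 1.74 and 1.33 FPKM, against 0.51 and 0.54 FPKM with IWP2 alone (1.496, SE 0.21, adjusted p = 3.66e-07).

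On day 11 CA13 had 0.4 and 0.73 FPKM with 2-DG, against 1.72 and 1.82 FPKM with IWP2 and NaHCO3 (-1.66, SE 0.21, adjusted p = 4.18e-08). NaHCO3 added to IWP2 gave 1.72 and 1.82 FPKM on day 11, against 0.92 and 0.74 FPKM with IWP2 alone (1.16, SE 0.19, adjusted p = 6.62e-06). NaHCO3 alone against the control was not called for CA13 on either day (-0.46 and -0.99). The highest CA13 value, 1.82 FPKM, was below the lowest of CA2, 2.88 FPKM.

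CA11 encodes a carbonic anhydrase-related protein, which lacks the residues that hold the catalytic zinc (ENSG00000063180, minus strand of chromosome 19, 49141199 to 49149569). Its highest level stood apart, at 38.63 and 42.24 FPKM in HCl cultures of day 3, against 18.2 and 20.27 FPKM in the control of that day (1.16, SE 0.16, adjusted p = 1.70e-05). On day 5 HCl cultures had 14.25 and 12.44 FPKM, against 7.03 and 5.52 FPKM in the control (1.12, SE 0.17, adjusted p = 2.10e-05). The day 5 change came to 0.96 without the second control library.

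The sign turned by day 11. HCl cultures then had 4.15 and 5.1 FPKM of CA11, against 12.24 and 12.53 FPKM in the control (-1.34, SE 0.13, adjusted p = 5.16e-10). The HCl effect of day 11 minus that of day 7 was -1.89 (SE 0.19, adjusted p = 2.48e-09). Between days 5 and 3 CA11 fell in all 6 cultures, by 1.47 to 2.72 on the log2 scale. Between days 11 and 7 it rose in the control (1.43, SE 0.13, adjusted p = 3.12e-10) and with NaHCO3 (1.61, SE 0.13, adjusted p = 6.69e-12).

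CA11 did not respond to IWP2 beyond the threshold on any day, while bicarbonate and 2-DG moved it in the cultures with IWP2. NaHCO3 added to IWP2 gave 16.05 and 14.91 FPKM on day 11, against 6.86 and 6.27 FPKM with IWP2 alone (1.31, SE 0.13, adjusted p = 3.29e-10). The addition of 2-DG gave 3.67 and 2.98 FPKM on day 11, against 16.05 and 14.91 FPKM without it, 4.54-fold lower (-2.18, SE 0.14, adjusted p = 1.93e-14). On day 7 the changes were 1.15 (SE 0.14) for NaHCO3 added to IWP2 and -1.13 (SE 0.14) for 2-DG, both called.

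Changes over time in the cultures were also counted by family. Between days 5 and 3 members had 20 calls in 36 tests (9 higher, 11 lower), where 17.5% of all tests were called. Between days 11 and 7 they had 18 calls in 42 tests (7 higher, 11 lower), where 12.7% of all tests were called. The control of days 7 and 11 against undifferentiated cells gave 8 calls in 14 tests (7 higher, 1 lower), where 37.1% of all tests were called.

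By gene, the rises between days 3 and 5 were in CA3 and CA4, and the falls in CA2 and CA11 and, in 1 culture each, in CA12 and CA14. CA3 rose in 5 of 6 cultures between these days and CA4 in 4 of 6. CA4 in IWP2 cultures was listed at 0 on day 3 and had 80 counts on day 5, at least 11.8-fold higher on day 5. CA4 between days 11 and 7 fell in 5 of 6 cultures and rose in HCl cultures, where it had 0.6 and 1.17 FPKM on day 11, against 0.19 and 0.23 FPKM on day 7 (2.16, SE 0.40, adjusted p = 2.28e-05).

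Of these time changes a few rest on 1 library. The CA4 change between days 11 and 7 with 2-DG (-1.33) came to -1.02 without the first library of day 11 and to -1.01 without the second of day 7, and was then not called. The CA4 change with IWP2 (-2.72) came to -2.02 or -4.25 without the first or the second library of day 11. The CA12 rise with IWP2 (1.63, adjusted p = 0.0464) came to 0.37 without the first library of day 11. The CA12 fall in the control between days 5 and 3 (-1.25) was not called without the first control library of day 3 or either control library of day 5.

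**Figure D4:**
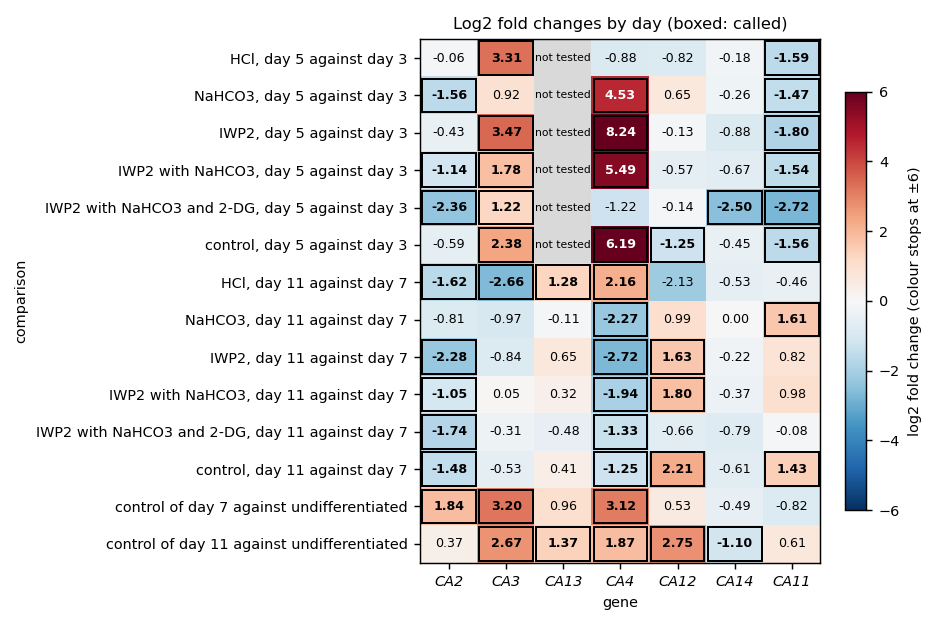
Log2 fold changes of the 7 tested genes between days 5 and 3 and days 11 and 7 within each culture, and in the control of days 7 and 11 against undifferentiated cells, with the colour scale stopping at 6 and a box around each called change. CA11 is lower on day 5 in all 6 cultures and CA2 lower on day 11 in 5 of 6; fitted CA4 values for HCl and IWP2 cultures between days 5 and 3 rest on groups with 0 to 2 counts and are no bound.

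The effect of NaHCO3 depended on whether IWP2 was present, which was tested as the difference between the effects. Over this and the differences between days, 17 of 52 tests of members were called (10 higher, 7 lower), where 10.2% of all such tests were. On day 11 NaHCO3 raised CA4 by 2.88 with IWP2 and lowered it without (-2.16), a difference of 5.04 (SE 0.48, adjusted p = 4.48e-10). CA3 differed by 3.25 (SE 0.38, adjusted p = 3.25e-08), CA12 by 3.15 (SE 0.44, adjusted p = 9.23e-06), CA13 by 2.15 (SE 0.28, adjusted p = 1.60e-07) and CA14 by -1.47 (SE 0.14, adjusted p = 3.96e-10). These were 5 of 7 members tested, beside 18.1% of all genes, and CA2 and CA11 were the 2 without a call. Without the first or the second IWP2 library of day 11 the difference was 4.33 or 6.59 for CA4 and 4.41 or 2.52 for CA12.

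On day 7 the difference was 3.23 for CA4 (SE 0.30, adjusted p = 4.46e-10), 1.96 for CA13 (SE 0.29, adjusted p = 1.92e-06), 1.92 for CA3 (SE 0.34, adjusted p = 2.73e-05) and 1.75 for CA12 (SE 0.63, adjusted p = 0.0344), 4 of 7 members beside 14.6% of all genes. On day 5 it was 1.70 for CA4 (SE 0.35, adjusted p = 0.00525) and -2.31 for CA12 (SE 0.63, adjusted p = 0.0315), 2 of 6 members beside 3.94% of all genes. The sign for CA12 on day 5 was the reverse of days 7 and 11, since NaHCO3 alone already raised CA12 on day 5 and the cultures with IWP2 and NaHCO3 had 0.08 and 0.19 FPKM. The CA4 call of day 5 was lost without the first IWP2 library (1.33, adjusted p = 0.0576). The CA12 call of day 5 was lost without either control library, either IWP2 library or the first library with IWP2 and NaHCO3 (-2.46 to -1.79, adjusted p = 0.068 to 0.202). The CA12 call of day 7 was lost without the first control library, the second NaHCO3 library, the first IWP2 library or either library with IWP2 and NaHCO3 (1.21 to 1.82, adjusted p = 0.0547 to 0.212). On day 3 the test called 0 of 6 members, beside 0.399% of all genes, and edgeR gave 0 of them an unadjusted p under 0.05, while DESeq2 and limma also called 0. The effect with IWP2 starts from the IWP2 group and the effect without it from the control, which differ by the IWP2 effect itself.

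**Figure D5:**
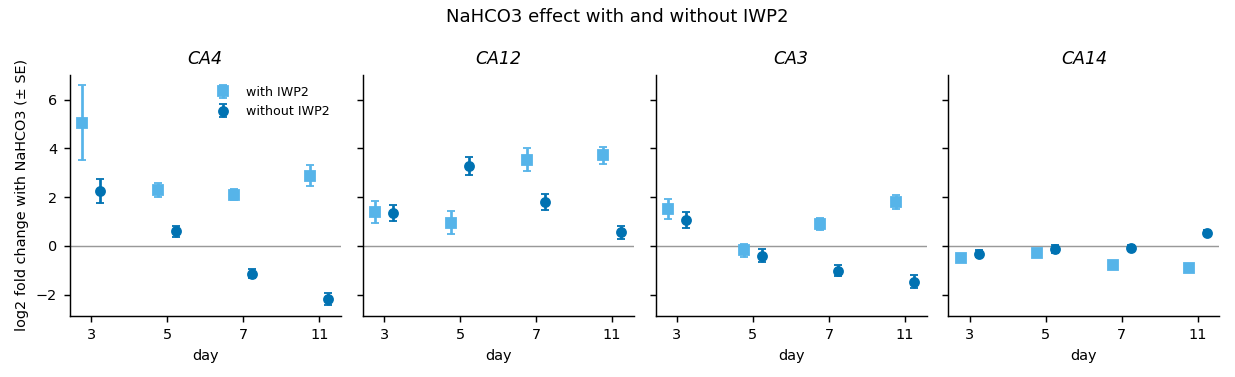
Log2 fold change of NaHCO3 with its SE on days 3, 5, 7 and 11, against IWP2 alone (squares) and against the control (circles), for CA4, CA12, CA3 and CA14. For CA4 the circles go from above 0 on day 3 (2.25) to below 0 on days 7 and 11 (-1.13 and -2.16) while the squares stay above 2; the CA4 square of day 3 is against 0 counts and is no bound.

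Carriers of bicarbonate, protons and lactate were read beside the enzymes, as a list of 22 genes of which 17 were tested. AQP1, a water channel that also passes carbon dioxide, rose with NaHCO3 on day 5, to 36.24 and 35.72 FPKM against 1.56 and 1.87 FPKM in the control (4.43, SE 0.23, adjusted p = 8.10e-11). On day 11 AQP1 had 5.56 and 6.04 FPKM with HCl, against 122.5 and 129.76 FPKM in the control (-4.36, SE 0.19, adjusted p = 1.69e-11). With NaHCO3 added to IWP2 it had 272.6 and 291.13 FPKM on day 11, against 18.9 and 15.82 FPKM with IWP2 alone (4.09, SE 0.18, adjusted p = 2.46e-11). No library of these paired groups overlapped for AQP1. With 2-DG it had 7.21 and 6.04 FPKM on day 11, against 272.6 and 291.13 FPKM without (-5.38, SE 0.20, adjusted p = 1.64e-12). These are the same signs as CA12 in the same 3 comparisons of day 11.

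SLC16A3, which exports lactate with a proton, was higher with NaHCO3 than in the control on all 4 days. On day 3 it had 33.14 and 31.17 FPKM with NaHCO3, against 8.23 and 8.36 FPKM in the control (2.01, SE 0.17, adjusted p = 9.84e-08), and on day 11 it had 57.38 and 61.21 FPKM with NaHCO3, against 10.98 and 12.61 FPKM (2.53, SE 0.09, adjusted p = 2.10e-19). SLC4A4, a sodium bicarbonate cotransporter, was higher with HCl on day 11, at 10.1 and 9.75 FPKM against 3.06 and 2.57 FPKM in the control (1.902, SE 0.10, adjusted p = 3.44e-16). SLC4A4 was lower with NaHCO3 on day 11 (-1.11, SE 0.12, adjusted p = 3.60e-09).

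Over the 17 transport genes, HCl gave 2 higher and none lower on day 3, 2 higher and 3 lower on day 5, 2 higher and 5 lower on day 7, and 2 higher and 2 lower on day 11, where 10.6%, 20%, 14.3% and 21.1% of all genes were called. NaHCO3 against the control gave 1 higher and none lower, 2 higher and 1 lower, 3 higher and 1 lower, and 2 higher and 2 lower on these days, beside 4.08%, 6.39%, 10.2% and 16.9% of all genes. NaHCO3 added to IWP2 gave 1 higher and none lower, 4 higher and none lower, 3 higher and 1 lower, and 4 higher and 3 lower, beside 3.19%, 5.81%, 16.7% and 18.5% of all genes. Several of these shares are near that of all genes. In each of these comparisons of days 7 and 11 the list had calls in both directions.

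The 25 group levels of a gene were also set against the 11604 genes that passed the filter in both tables and reached a group mean of 5 FPKM, as Pearson's r of log2(FPKM + 1) over the group means. These groups share days and treatments, and r describes them only. CA4 was most like CUBN (r = 0.970), F2 (0.954) and SOAT2 (0.951), which encode an uptake receptor of kidney and gut, prothrombin and a cholesterol-esterifying enzyme. CA12 was most like ANXA8L2 (0.930, with a Spearman rho of 0.519), RP1-45C12.1 (0.928) and NMRK1 (0.926), and CA13 most like MIR503HG (0.921), LCN1 (0.896) and CNKSR2 (0.893). CA2 was most like CFC1 (0.904), CA11 like NTN1 (0.884), CA3 like FAM122A (0.875) and CA14 like PROCA1 (0.817). Spearman's rho in place of r kept 4 of the 24 most alike genes, so that the names depend on the measure, and by rho CA12 was most like ANG, C11orf80 and CYB5R2.

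Among the members themselves far fewer pairs were searched, so their highest r cannot be set against the values above. CA12 and CA13 had r = 0.639, CA3 and CA4 0.631 and CA4 and CA13 0.543 over the 25 groups. CA14 ran the other way to CA13 (-0.528) and to CA12 (-0.450). The barely expressed CA9 had 0.552 with CA11 and 0.539 with CA14. The most negative r was that of CA3 and CA9 (-0.633), and CA3 and CA11 had -0.508. The order of groups by level was firm only in places: of the 24 pairs of neighbours, 12 overlapped in their libraries for CA14, 14 for CA2, 15 for CA11, 16 for CA12, 17 for CA4, and 20 each for CA3 and CA13.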

How the data were processed

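Read counts per gene and FPKM of 50 bulk RNA libraries were used as deposited, in 1 table of days 3 and 5 and 1 of days 7, 11 and 0. Per the labels' protocols, RNAiso Plus served for extraction and the VAHTS Universal V8 kit for the libraries. The submitters' processing notes name cutadapt 1.9.1, HISAT2 2.0.1, HTSeq 0.6.1 and GRCh37; settings and strand are not given in the sources used here. The deposited counts are whole numbers, and the deposited FPKM were checked against values recomputed from the counts and exon lengths. The members and lists were chosen with earlier results of these data known.

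Counts were tested with edgeR 4.0.16 (R 4.3.3; TMM scaling, robust quasi-likelihood fit) with all libraries of a table in 1 model, 24 libraries and 17286 genes for days 3 and 5 and 26 libraries and 18451 genes for the rest, so that the 2-DG libraries of day 3 also enter the estimate of the spread. Genes needed at least 1 FPKM in at least 2 libraries. Called means an adjusted p under 0.05 (Benjamini-Hochberg over all genes tested) and a log2 change whose size is 1 or more. Where a group had 3 counts or fewer, a count ratio with its exact 95% interval, or a bound at 3 counts per library, replaces the fitted fold; both cover counting error only. The test was tried on simulated counts with known changes. The alternatives were DESeq2 1.42.0, its size factors in edgeR, limma 3.58.1 on log2(FPKM + 1) and log2(FPKM + 0.1), other filters, no minimum fold change, only the libraries of the days compared, the fit without the 2-DG libraries of day 3, a replicate block and leaving out each library. The plan was to name all 8 members, the 4 genes of a pathway list with the largest called change, and the 3 genes most like each member. The text departs from it: the number of pathway genes named varies, some members have fewer like genes named, and CA9 has none. Sequences and motif matches were read from a RefSeq promoter table (GRCh38.p14) with Python 3.11.15; gene coordinates are those of the files.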

Additional observations from a re-analysis of the deposited data

Results flagged for a closer look

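These results stand out because the effect of a treatment differed between days, or between cultures with and without IWP2, by a test of the difference itself (edgeR's quasi-likelihood test, Benjamini-Hochberg adjustment over all genes). The effect of HCl on CA4 was lower on day 5 than on day 3 by a fitted log2 difference of -7.07 (adjusted p = 0.00854). It rests on groups with 1 and 2 counts and was no longer called without the first HCl library of day 3 (-3.77, adjusted p = 0.981). The effect of HCl on day 11 minus that on day 7 was -2.13 for CA3, 3.41 for CA4, -1.89 for CA11 and -4.34 for CA12. The effect of IWP2 on CA4 on day 11 minus that on day 7 was -1.47 (adjusted p = 0.0421), and this call was lost without the first IWP2 library of day 11 (-0.77), without either IWP2 library of day 7 and without any 1 of the 4 control libraries (adjusted p = 0.0524 to 0.405).

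The effect of NaHCO3 with IWP2 minus that without it was 1.70 for CA4 and -2.31 for CA12 on day 5. On day 7 it was 1.92 for CA3, 3.23 for CA4, 1.75 for CA12 and 1.96 for CA13. On day 11 it was 3.25 for CA3, 5.04 for CA4, 3.15 for CA12, 2.15 for CA13 and -1.47 for CA14. The day 11 difference was 4.33 or 6.59 for CA4, and 4.41 or 2.52 for CA12, without the first or the second IWP2 library. The CA12 difference of day 5 was -3.07 without the second library with IWP2 and NaHCO3, and that of day 7 was 2.66 without the second IWP2 library. The CA12 calls of days 5 and 7 were each lost without any 1 of 5 of their 8 libraries and with limma on both scales, that of day 7 with DESeq2, and the CA4 call of day 5 without the first IWP2 library of that day.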

How the results depend on the processing

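Of 118 calls of members, 73 were kept under every alternative and 45 were lost under at least 1. Limma on log2(FPKM + 1), in which low genes shrink, kept 76 calls, lost 41 and turned the sign of 1, limma on log2(FPKM + 0.1) lost 11, DESeq2 lost 1, and DESeq2's size factors and no filter lost none. With limma on log2(FPKM + 1) the counts of calls were 9 for HCl, 2 for NaHCO3 and 5 for NaHCO3 added to IWP2. With no minimum fold change they were 16 for NaHCO3, 14 for IWP2, 16 for 2-DG, 31 between days 11 and 7 and 13 for the control against undifferentiated cells. The share of all genes called under limma or without a minimum fold change is not given, so these counts cannot be set against all genes. For CA4, limma turned the sign of the IWP2 effect of day 5 minus day 3 (-1.94 on log2(FPKM + 1), -1.91 on log2(FPKM + 0.1)), of the IWP2 effect of day 11 minus day 7 (0.35 on log2(FPKM + 1)) and of the NaHCO3 effect with minus without IWP2 on day 3 (-0.27 on log2(FPKM + 1), -0.55 on log2(FPKM + 0.1)); the cause was not tested. Leaving out 1 library at a time gave 15 to 17 calls for HCl, 6 to 10 for NaHCO3, 8 to 10 for IWP2, 10 to 13 for NaHCO3 added to IWP2, 9 to 10 for 2-DG, 19 to 21 between days 5 and 3, 17 to 20 between days 11 and 7, 8 to 9 for the control against undifferentiated cells and 15 to 17 for the differences between effects.

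Libraries of different groups with the same replicate number did not deviate together in the median. The median r was 0.0029 over 66 pairs of groups in the table of days 3 and 5, and -0.0056 over 78 in the other. In the table of days 3 and 5, r ranged from -0.1669 to 0.337, with 2 pairs over 0.1 and 2 under -0.1. In the other table r ranged from -0.0516 to 0.0917. A median near 0 cannot exclude pairing in some groups. A replicate block gave 16 calls for HCl, 9 for NaHCO3, 9 for IWP2, 11 for NaHCO3 added to IWP2, 9 for 2-DG, 20 between days 5 and 3, 19 between days 11 and 7, 8 for the control against undifferentiated cells and 16 for the differences between effects. It ended 2 calls of CA4 by edgeR's test, NaHCO3 added to IWP2 on day 3 (5.04) and the IWP2 effect of day 11 minus day 7 (-1.47). The fit with only the days compared was the same as the main one between days 5 and 3, and the fit without the 2-DG libraries of day 3 could not be given for 2-DG or between days 5 and 3. With 2 libraries a group, genes under 1 FPKM carry few counts. CA9 in all comparisons and CA13 on days 3 and 5 have no test beyond the unfiltered one. In that test CA13 was called in 2 of 16 comparisons. It was higher on day 5 with NaHCO3 added to IWP2, and higher on day 5 than on day 3 in the control. No share of all genes stands beside these unfiltered counts.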

Other observations

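Of 7 further carbonic anhydrase genes, CA5B and CA8 were expressed enough to be tested on days 7 and 11. CA5B encodes a mitochondrial enzyme, and it ran against CA4 and CA12 in the comparisons of day 11 that follow. On day 11 CA5B had 4.1 and 4.51 FPKM with HCl, against 1.4 and 1.45 FPKM in the control (1.68, SE 0.13, adjusted p = 2.35e-12 in edgeR's quasi-likelihood test). IWP2 cultures had 5.37 and 5.4 FPKM of CA5B on day 11, above the same control (1.94, SE 0.13, adjusted p = 1.73e-13). With NaHCO3 added to IWP2, CA5B fell to 0.94 and 1.04 FPKM, against 5.37 and 5.4 FPKM with IWP2 alone (-2.38, SE 0.14, adjusted p = 1.85e-15). With 2-DG it had 3.51 and 3.6 FPKM, against 0.94 and 1.04 FPKM without (1.86, SE 0.14, adjusted p = 7.63e-13). The groups did not overlap in any of these comparisons. The heart muscle sum was high in the same 3 groups of day 11, and its part was not tested. With NaHCO3 alone on day 11 the CA5B mean was under 1 FPKM, below the control, and CA4 was below the control there too.

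CA8, a second related protein without enzyme activity, was highest in undifferentiated cells among the groups of days 0, 7 and 11. It had 0.43 and 0.55 FPKM in the control of day 11, against 5.64 and 4.89 FPKM in undifferentiated cells (-3.52, SE 0.22, adjusted p = 3.18e-15). With HCl it had 3.36 and 3.15 FPKM on day 11, against 0.43 and 0.55 FPKM in the control (2.81, SE 0.22, adjusted p = 3.41e-12). The addition of 2-DG raised CA8 on days 3, 7 and 11, by a log2 change of 2.77 on day 11 (SE 0.27, adjusted p = 3.31e-10). The day 3 rise is the least certain, since the 2-DG libraries of that day lay farther apart than those of any other group. No other group of day 3 had a mean of 1 FPKM or more for any of the 7 further genes. CA8 may thus have passed the filter of days 3 and 5 through the 2-DG group itself. Some difference on day 3 was then bound to appear, and the day 3 rise supports nothing further.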
